A study of Mus musculus with 15 samples.

Results

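The genes described here are 8 aldehyde dehydrogenases (Aldh3a1, Aldh3a2, Aldh3b1, Aldh1a1, Aldh1a2, Aldh1a3, Aldh1a7 and Aldh2) and 2 aldehyde oxidases (Aox1 and Aox3) in mouse lung. They were taken by symbol, through the RefSeq accession of each probe, and are 10 of the 19289 genes with a symbol that were tested. RNA came from whole lungs of 15 mice of the outbred stock Crlj:CD1(ICR), all female, aged 11 weeks and fed powdered diet for 7 days. The groups of 3 mice differed only in the permethrin content of the diet, which was 0 (control), 20, 500, 2500 or 5000 ppm, and each mouse was hybridised to 1 single-colour Agilent array. Permethrin is a pyrethroid insecticide, and no genotype or second agent is named in the labels. In whole tissue, fewer cells of a type and less RNA per cell cannot be told apart.

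Aldehyde dehydrogenases oxidise aldehydes to carboxylic acids with NAD or NADP. The ALDH3 enzymes act mainly on fatty aldehydes and on the aldehydes that lipid peroxidation releases. ALDH1A1, ALDH1A2 and ALDH1A3 turn retinaldehyde into retinoic acid, and ALDH2 is the mitochondrial enzyme of acetaldehyde. Aldehyde oxidases are cytosolic enzymes that carry FAD, iron-sulphur clusters and a molybdenum cofactor, take oxygen in place of NAD, and also oxidise nitrogen heterocycles in drugs. The benzyl alcohol that esterases release from permethrin is known to be oxidised through an aldehyde to an acid. Aldh3a1, Nqo1 and several glutathione transferases are known targets of the transcription factor Nrf2, which binds antioxidant response elements (ARE), and Aldh3a1 and Nqo1 are also known targets of the aryl hydrocarbon receptor (AhR), which binds xenobiotic response elements (XRE).

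Several of the 10 genes are neighbours in the mouse genome. By the RefSeq annotation no protein-coding gene lies between Aldh3a1 and Aldh3a2, between Aldh1a1 and Aldh1a7, or between Aox1 and Aox3. The last pair and the middle pair are shown here by their start regions, because Aldh1a1 and Aldh1a7 were both highest at the 2 high doses, and because Aox1 rose while the 2 probes of Aox3 gave different patterns. Each window holds 250 bases before and 50 after an annotated transcript start (RefSeq, GRCm38.p6), is written on the strand of the gene, and has matches to a motif core in capitals. The second start of Aldh1a1 is at chr19:20601718-20602017 on the plus strand, Aldh1a7 at chr19:20727507-20727806 on the minus strand, Aox1 at chr1:58029719-58030018 and Aox3 at chr1:58112886-58113185, both on the plus strand.
Aldh1a1, second start: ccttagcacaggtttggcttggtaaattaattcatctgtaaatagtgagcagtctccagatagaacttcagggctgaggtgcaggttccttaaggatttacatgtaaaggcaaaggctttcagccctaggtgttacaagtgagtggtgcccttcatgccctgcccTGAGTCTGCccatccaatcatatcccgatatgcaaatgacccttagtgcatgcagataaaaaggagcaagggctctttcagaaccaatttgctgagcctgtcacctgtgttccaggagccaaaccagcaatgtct
Aldh1a7: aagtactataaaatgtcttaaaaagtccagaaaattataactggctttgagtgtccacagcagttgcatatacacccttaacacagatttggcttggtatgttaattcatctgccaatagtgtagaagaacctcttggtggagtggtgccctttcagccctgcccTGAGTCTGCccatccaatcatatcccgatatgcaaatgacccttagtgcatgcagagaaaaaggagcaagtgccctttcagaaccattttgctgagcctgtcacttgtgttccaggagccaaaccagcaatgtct
Aox1: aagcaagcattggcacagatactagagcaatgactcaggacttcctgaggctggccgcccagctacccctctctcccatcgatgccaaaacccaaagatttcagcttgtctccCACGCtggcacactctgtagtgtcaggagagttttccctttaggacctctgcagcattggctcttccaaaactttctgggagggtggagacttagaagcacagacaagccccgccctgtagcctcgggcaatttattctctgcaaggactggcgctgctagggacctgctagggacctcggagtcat
Aox3: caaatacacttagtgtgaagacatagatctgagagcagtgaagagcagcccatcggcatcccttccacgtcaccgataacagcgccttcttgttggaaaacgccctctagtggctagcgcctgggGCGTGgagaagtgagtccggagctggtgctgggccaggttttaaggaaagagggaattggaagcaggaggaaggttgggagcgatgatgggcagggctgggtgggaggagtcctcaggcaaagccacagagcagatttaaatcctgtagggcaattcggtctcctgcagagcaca
The capitals in the Aldh1a1 and Aldh1a7 windows mark the same ARE-like core, TGAGTCTGC, which begins at base 166 of the window in both genes. It lies in a run of 65 identical bases, from base 157 to base 221. Over bases 151 to 300 the windows of these neighbours were identical at 142 of 150 positions (94.7%), and over all 300 bases at 59%. The other annotated start of Aldh1a1 lies at chr19:20492333-20492632, was identical to the Aldh1a7 window at 25.7% of positions and held no match. The capitals in the Aox1 and Aox3 windows mark the XRE core GCGTG, on the minus strand in Aox1 (where it reads CACGC) and on the plus strand in Aox3. The search took TGACNNNGC, TGAGNNNGC and GCGTG on both strands. Among 32851 windows of the same length 12.4% held the first, 17.6% the second, 27.8% either of these, and 32.4% the third, so each match is common. Windows were listed for 7 of the 10 genes (8 windows), and the 3 genes not listed were Aldh3a1, Aldh1a3 and Aldh2. The windows of Aldh3a2 and Aldh1a2, which did not separate by dose, each held 1 ARE core and 1 XRE core. Those of Aox1 and Aox3 held no ARE core, and that of Aldh3b1 held no match. Whether any match acts in these lungs was not tested.

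All 16 probes of the 10 genes were called well above background on all 15 arrays. For 3 of them the linear processed signal was nonetheless low: 12.9 to 55.9 for Aldh1a3, and for Aldh3a2 16.5 to 52.5 by A_55_P2929644 and 25.5 to 197 by A_66_P116496. Of all probes, 70.7% to 87.0% were above background on an array, and no spot was saturated. Slide 1 held the arrays of the control and 20 ppm diets and 500 ppm mice 1 and 2, and slide 2 held 500 ppm mouse 3 and all arrays at 2500 and 5000 ppm, so that slide and dose cannot be told apart for the high doses except through that single array. 500 ppm mouse 3 and 2500 ppm mouse 3, whose files hold an extraction status of 1, stood apart on the first principal component (36.5% of variance), and control mouse 1 and 20 ppm mouse 1 on the second (17.9%). Levels are log2 signals relative to the 75th percentile of the array, so that 0 is the level of that percentile, and a level is compared only between mice for the same probe. Fold changes, standard errors (SE) and p values come from limma over all 15 arrays, adjusted by the Benjamini-Hochberg method over 34401 features (genes, and probes without a symbol) with a threshold of 0.05. The 4 doses were compared with the same 3 control arrays.

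At 5000 ppm Aldh3a1 and Aox1 rose, Aldh1a1, Aldh3b1 and Aldh1a7 read higher in all 3 mice than in any control without passing the threshold, and the other 5 genes overlapped with the control. The 2 genes called are set against 14 of 34401 features called in either direction (0.0407%) and 13 higher (0.0378%). Of the 10 genes 8 had a positive fold (7 after quantile normalization), as had 60.6% of all features, with a median of 0.34 (log2) against 0.07 over all features. At 2500 ppm no feature of 34401 passed by limma (0%, the smallest adjusted p being 0.111), while 5 of the 10 genes and 2922 features (8.49%) had an unadjusted p under 0.05. All 5 of these genes were higher, against 5.52% of features higher at that p. At 5000 ppm the same 5 genes had an unadjusted p under 0.05 and were higher, where 1768 features (5.14%) had such a p and 3.04% were higher. The mice of these 5 genes lay above the controls without overlap at both doses, as did those of 8.83% of features at 2500 ppm and 12.9% at 5000 ppm. The 2 doses share their controls, and the values of each are given gene by gene below.

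**Figure D1:**
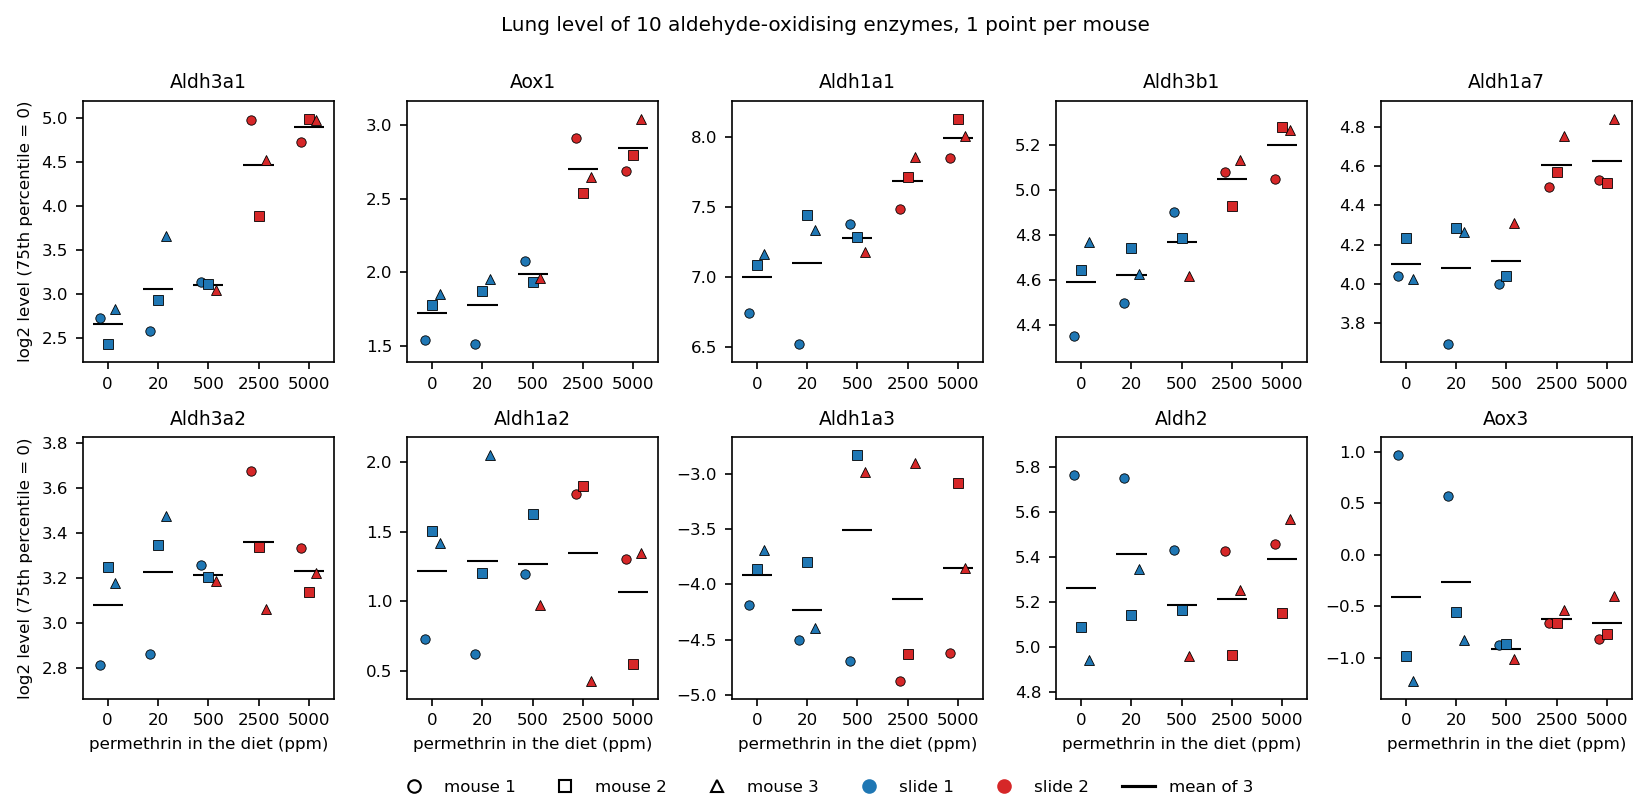
Level of each of the 10 genes (log2 signal relative to the 75th percentile of the array, y axis) against permethrin in the diet (ppm, x axis, equally spaced diets), with 1 point per mouse, the marker for the mouse number, the colour for the slide and a bar for the mean of 3. In Aldh3a1, Aox1, Aldh1a1, Aldh3b1 and Aldh1a7 all 6 points at 2500 and 5000 ppm lie above the other 9, including the slide 2 point at 500 ppm.

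Aldh3a1, which oxidises aromatic and medium-chain aldehydes, had the largest fold of the 10 genes at both high doses. The 3 control mice read 2.72, 2.43 and 2.83 (log2 level, mice 1 to 3), the 20 ppm mice 2.58, 2.93 and 3.66, and the 500 ppm mice 3.14, 3.12 and 3.04. The 2500 ppm mice read 4.98, 3.89 and 4.53, and the 5000 ppm mice 4.73, 4.99 and 4.98. Every mouse on the 2 high doses was above every mouse on the other 3 diets, and the mice of the 2 high doses overlapped. At 500 ppm all 3 mice were just above the 3 controls, within a range that the 20 ppm mice spanned. Against control the fold was 4.73 at 5000 ppm (log2 2.24 ± 0.29 SE, 3 mice against 3, limma adjusted p = 0.0122). At 2500 ppm it was 3.50 (1.81 ± 0.29, adjusted p = 0.111), at 500 ppm the log2 fold was 0.44 ± 0.29 and at 20 ppm 0.40 ± 0.29. In the order of means (control 2.66, 20 ppm 3.06, 500 ppm 3.098, 2500 ppm 4.47, 5000 ppm 4.90), the single step between neighbouring diets whose mice did not overlap was that from 500 to 2500 ppm. With each of control mouse 1, control mouse 2 and 5000 ppm mice 1, 2 and 3 left out, the 5000 ppm log2 fold lay between 2.13 and 2.33 and its adjusted p was 0.0936, 0.117, 0.0622, 0.0937 and 0.0663. A fit with a fixed slide effect, for which 500 ppm mouse 3 carries all the information, gave a log2 fold of 2.33 ± 0.53 (adjusted p = 0.0135), and one with a random slide effect 2.27 ± 0.37 (adjusted p = 0.148). That array stood apart on the first principal component. At 2500 ppm the fixed slide fit called 5055 of all features, where the main fit called 0, and its count at 5000 ppm is not given here.

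Aox1, the aldehyde oxidase that mouse and human share, showed the same step between 500 and 2500 ppm. Control mice read 1.54, 1.78 and 1.86 (log2 level), 20 ppm mice 1.51, 1.87 and 1.95, and 500 ppm mice 2.07, 1.93 and 1.96. The mice at 2500 ppm read 2.91, 2.54 and 2.65, and those at 5000 ppm 2.69, 2.79 and 3.04. The 6 mice of the high doses again lay above the other 9, and at 500 ppm all 3 lay above the controls by a margin smaller than the spread of the controls. The 5000 ppm level was 2.17-fold that of the control (log2 1.12 ± 0.17 SE, 3 against 3, limma adjusted p = 0.0420), and the 2500 ppm level 1.97-fold (0.98 ± 0.17, adjusted p = 0.111). At 500 and 20 ppm the log2 folds were 0.27 ± 0.17 and 0.06 ± 0.17. The call at 5000 ppm was close to the threshold: without 20 ppm mouse 1 the adjusted p was 0.0251, and with any of the other 14 arrays left out it lay between 0.0505 and 0.245. The log2 fold stayed between 1.02 and 1.19. A fixed slide effect, which again rests on 500 ppm mouse 3, gave a log2 fold of 1.16 ± 0.31 (adjusted p = 0.0273). A random one gave 1.13 ± 0.22 (adjusted p = 0.433), and the array median as the scale 1.14 ± 0.31 (adjusted p = 0.763).

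**Figure D2:**
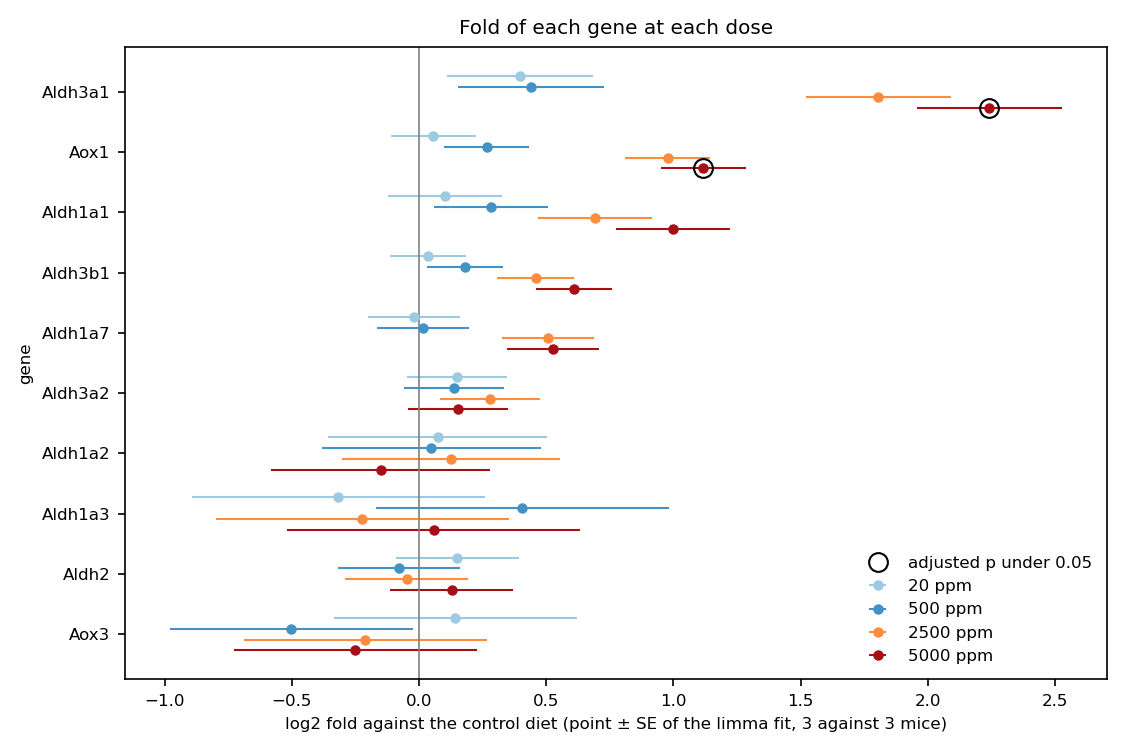
Log2 fold of each gene against the control diet (x axis) at 20, 500, 2500 and 5000 ppm, as point ± SE of the limma fit with 3 mice against 3, with circled points for an adjusted p under 0.05. Aldh3a1 (2.24) and Aox1 (1.12) at 5000 ppm are the 2 circled points, and the points of the 5 genes in the lower rows lie between -0.50 and 0.41 at all doses.

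Aldh1a1, a retinaldehyde dehydrogenase that also oxidises lipid aldehydes, read 6.75, 7.09 and 7.17 in the control mice (log2 level), 6.52, 7.45 and 7.34 at 20 ppm, and 7.38, 7.29 and 7.18 at 500 ppm. It read 7.49, 7.72 and 7.86 at 2500 ppm and 7.85, 8.13 and 8.01 at 5000 ppm. The lowest mouse of the high doses was 0.04 above the highest of the others, 20 ppm mouse 2, so the separation was narrow there and wide against the controls. The log2 folds were 0.10 ± 0.22, 0.28 ± 0.22, 0.69 ± 0.22 (adjusted p = 0.354) and 0.997 ± 0.22 (adjusted p = 0.298) from the lowest to the highest dose. Its 95% interval at 5000 ppm ran from 0.51 to 1.48.

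Aldh1a7, a close rodent relative of Aldh1a1, read 4.04, 4.24 and 4.03 in the controls, 3.70, 4.29 and 4.27 at 20 ppm, and 4.001, 4.04 and 4.31 at 500 ppm. At 2500 ppm it read 4.50, 4.57 and 4.76, and at 5000 ppm 4.53, 4.51 and 4.84. Its means at 20 and 500 ppm were those of the control within 0.02 (log2 folds -0.02 ± 0.18 and 0.02 ± 0.18). The difference in means came between 500 and 2500 ppm, where the slide also changed for all but 500 ppm mouse 3. That mouse, on slide 2, read the highest of the 9 on the lower diets (4.31). The log2 folds were 0.51 ± 0.18 (adjusted p = 0.405) at 2500 ppm and 0.53 ± 0.18 (1.44-fold, adjusted p = 0.862) at 5000 ppm. With a fixed slide effect, for which 500 ppm mouse 3 carries all the information, they were 0.22 and 0.24. The probe sequences are not used here, so whether the probes of these 2 similar genes each detect a single transcript was not tested.

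Aldh3b1, a membrane-bound enzyme of lipid aldehydes, read 4.35, 4.64 and 4.77 in the controls, 4.50, 4.74 and 4.63 at 20 ppm, and 4.90, 4.79 and 4.62 at 500 ppm. The 2500 ppm mice read 5.08, 4.93 and 5.13 and the 5000 ppm mice 5.05, 5.28 and 5.26. The high doses stood above the other diets by 0.03 at the closest point. The log2 folds were 0.46 ± 0.15 (adjusted p = 0.359) at 2500 ppm and 0.61 ± 0.15 (1.52-fold, adjusted p = 0.449) at 5000 ppm.

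In these 5 genes, Aldh3a1, Aox1, Aldh1a1, Aldh1a7 and Aldh3b1, all 6 mice on the high doses lay above all 9 others, which held for 117 of the 34401 features (0.34%). The genes were named here with these values known, so the share is a description. 500 ppm mouse 3, the array that shares its slide with the high doses, read 3.04, 1.96, 7.18, 4.31 and 4.62 for these 5 genes in that order. It is 1 of the 9 others, so that it lay below all 6 high-dose mice follows from that separation and adds no check on slide. It is a single array with an extraction status of 1, and for Aldh1a7 it was the highest of the 9. Between 5000 and 2500 ppm, both on slide 2, no member passed (0% of features by limma, smallest adjusted p 0.258, with 5.04% of features and 0 of the 10 genes at an unadjusted p under 0.05), and the mice of the 2 doses overlapped for each of the 10 genes (8.15% of features lay higher without overlap and 7.1% lower). The log2 differences were 0.44 ± 0.29 for Aldh3a1 (95% interval -0.19 to 1.06), 0.31 ± 0.22 for Aldh1a1 (-0.18 to 0.79), 0.15 ± 0.15 for Aldh3b1 (-0.17 to 0.47), 0.14 ± 0.17 for Aox1 (-0.22 to 0.50) and 0.02 ± 0.18 for Aldh1a7 (-0.37 to 0.41). The last of these turned to -0.09 after quantile normalization.

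A trend over the 5 dose ranks was positive and passed for Aldh3a1 (0.59 ± 0.06 log2 per rank, limma adjusted p = 0.00265) and Aox1 (0.32 ± 0.04, adjusted p = 0.00428), where 49 features passed (0.142%) and 31 were higher (0.0901%). Both passed with each of the 15 arrays left out in turn. With a random slide effect neither passed (adjusted p = 0.112 and 0.234). Aldh1a1 (0.26 ± 0.05 per rank, adjusted p = 0.0832), Aldh3b1 (0.16 ± 0.03, adjusted p = 0.0981) and Aldh1a7 (0.16 ± 0.04, adjusted p = 0.223) did not pass. All 5 genes had an unadjusted p under 0.05 on the trend, as did 9.22% of features (5.77% higher). By limma no member passed at 20 or 500 ppm (0% of features at each), and 0 of the 10 genes had an unadjusted p under 0.05 at either dose (1.48% and 2.84% of features). At 500 ppm the mice of Aldh3a1, Aox1 and Aldh1a1 lay above the controls, where 4.53% of features did so. On slide 1 alone the 500 ppm log2 folds were 0.47 for Aldh3a1 and 0.28 for Aox1. The array median in place of the 75th percentile moved the median of all features at 500 ppm from 0.12 to -0.11, more than at any other dose, and the Aldh3a1 and Aox1 log2 folds there to 0.21 and 0.04.

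The remaining 5 genes did not separate by dose with the probe used for the gene. Aldh3a2, the fatty aldehyde dehydrogenase that lies beside Aldh3a1, read 2.81, 3.25 and 3.18 in the controls and 3.33, 3.14 and 3.22 at 5000 ppm by its brightest probe (log2 fold 0.15 ± 0.20, 95% interval -0.28 to 0.58, adjusted p = 0.970). At 2500 ppm it read 3.67, 3.34 and 3.06, and at 20 and 500 ppm between 2.86 and 3.47. The interval at 5000 ppm does not reach the fold of its neighbour. Of its 3 other probes, A_55_P2180899 gave -0.17 ± 0.15, A_55_P2929644 0.12 ± 0.26 and A_66_P116496 0.41 ± 0.42 at 5000 ppm. The last of these is assigned to a noncoding transcript of the gene and had its highest values at 2500 ppm, with -1.02, -2.03 and -3.16 against -3.74, -3.55 and -3.45 in the controls (1.51 ± 0.42, adjusted p = 0.334 with every probe tested by itself, where 0 of 43154 probes passed at 2500 ppm, 0%).

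Aldh2, the mitochondrial acetaldehyde enzyme, read 5.76, 5.09 and 4.94 in the controls and 5.46, 5.15 and 5.57 at 5000 ppm by its brightest probe (log2 fold 0.13 ± 0.24, 95% interval -0.39 to 0.65). The fold was -0.03 after quantile normalization. Its levels were highest in control mouse 1 (5.76) and 20 ppm mouse 1 (5.75), and a second probe, A_52_P116134, read 4.36 and 4.29 in these mice and between 0.59 and 2.63 in the other 13. Those are the arrays that stood apart on the second principal component. The third probe, A_52_P13109, read -2.53, -0.75 and -2.24 in the controls, 0.10, -0.24 and -0.16 at 2500 ppm, and -0.44, -2.06 and -0.09 at 5000 ppm (1.74 ± 0.54, adjusted p = 0.391, and 0.98 ± 0.54). The 3 probes carry the same RefSeq accession and differ in sign at both high doses.

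**Figure D3:**
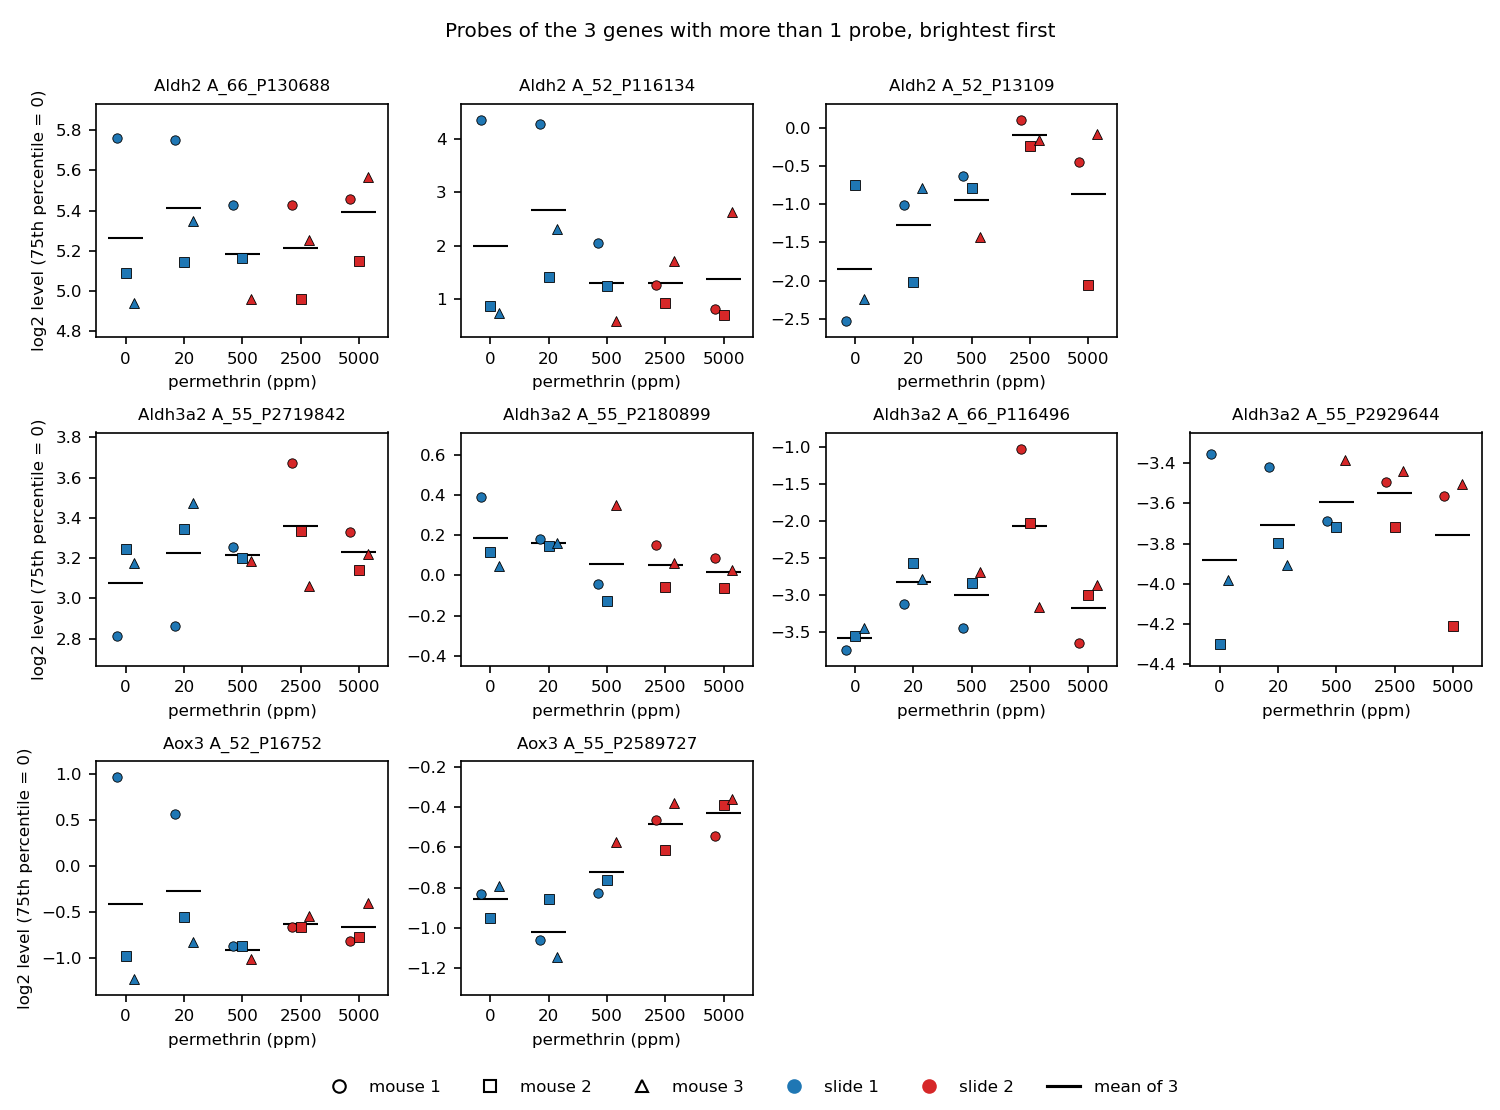
Level of every probe of Aldh2, Aldh3a2 and Aox3 (log2 relative to the 75th percentile of the array, y axis) against diet (ppm, x axis, equally spaced), with 1 point per mouse, the marker for the mouse number, the colour for the slide and a bar for the mean of 3. Probes of one gene differ in pattern: for Aox3 the first probe is highest in control mouse 1 (0.96) and 20 ppm mouse 1 (0.57), and the second is highest at 5000 ppm.

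Aox3, a second aldehyde oxidase and the neighbour of Aox1, gave opposite signs by its 2 probes. The brighter probe, A_52_P16752, read 0.96, -0.98 and -1.22 in the controls, 0.57, -0.56 and -0.82 at 20 ppm, and -0.81, -0.77 and -0.40 at 5000 ppm (-0.25 ± 0.48, adjusted p = 0.970). Its sign rests on control mouse 1, without which the log2 fold was 0.44. The other probe, A_55_P2589727, read -0.83, -0.95 and -0.79 in the controls, -1.06, -0.86 and -1.14 at 20 ppm and -0.83, -0.76 and -0.57 at 500 ppm. At 2500 ppm it read -0.46, -0.61 and -0.38, and at 5000 ppm -0.54, -0.39 and -0.36. It had no such high array, and both high doses lay above the controls (0.37 ± 0.14 and 0.43 ± 0.14, adjusted p = 0.474 and 0.870 with every probe tested by itself, where 0.0324% of probes passed at 5000 ppm). Its trend was 0.14 ± 0.03 per dose rank (adjusted p = 0.164).

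Aldh1a2, the retinaldehyde dehydrogenase of mesothelium and embryo, read 0.73, 1.51 and 1.42 in the controls, 1.77, 1.83 and 0.43 at 2500 ppm and 1.30, 0.55 and 1.35 at 5000 ppm (log2 fold -0.15 ± 0.43, 95% interval -1.08 to 0.78). Over the 15 mice it ran from 0.43 to 2.05, and the mice of one diet spanned most of that range. Aldh1a3, the third retinaldehyde dehydrogenase, read -4.19, -3.86 and -3.69 in the controls and -4.62, -3.08 and -3.86 at 5000 ppm (0.06 ± 0.58, 95% interval -1.19 to 1.31). Its SE was the largest of the 10 genes. These intervals span changes in either direction, so the data do not show that the 2 genes were level.

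The level patterns over the 15 mice fell into the same groups. The Pearson correlation of Aldh3a1 with Aox1 was 0.96, of Aldh3b1 with Aox1 0.94, of Aldh3b1 with Aldh1a1 0.92 and of Aldh1a1 with Aldh1a7 0.87 (15 mice, which share the dose groups and slides, so that these are descriptions). Aldh3a1 and its neighbour Aldh3a2 correlated at 0.41. Aox1 and its neighbour Aox3 correlated at -0.31 by the brighter Aox3 probe, which turned to 0.65 over the 13 mice without control mouse 1 and 20 ppm mouse 1. By the other Aox3 probe the correlation was 0.85 over the 15 mice and 0.84 over the 13. Among all named genes the pattern most like that of Aldh3a1 was Aox1, followed by Entpd5 (0.96), an endoplasmic reticulum nucleotidase, Txnrd1 (0.93), a thioredoxin reductase, Osgin1 (0.92) and Ugt1a6b (0.91), a glucuronosyltransferase. For Aox1 the list was Aldh3a1, Ugt1a6b (0.96), Gstm1, Gsta3 and Entpd5 (each 0.95). Gstm1 and Gsta3 are glutathione transferases. Aldh3b1 was most like Gstm1 (0.97), Gstm3 (0.96) and Bspry (0.95), and Aldh1a1 most like Cbr1 (0.97), a carbonyl reductase, Dnajc12 (0.97) and B9d1 (0.96), and Aldh1a7 most like 4930562C15Rik (0.95) and Stx18 (0.93).

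**Figure D4:**
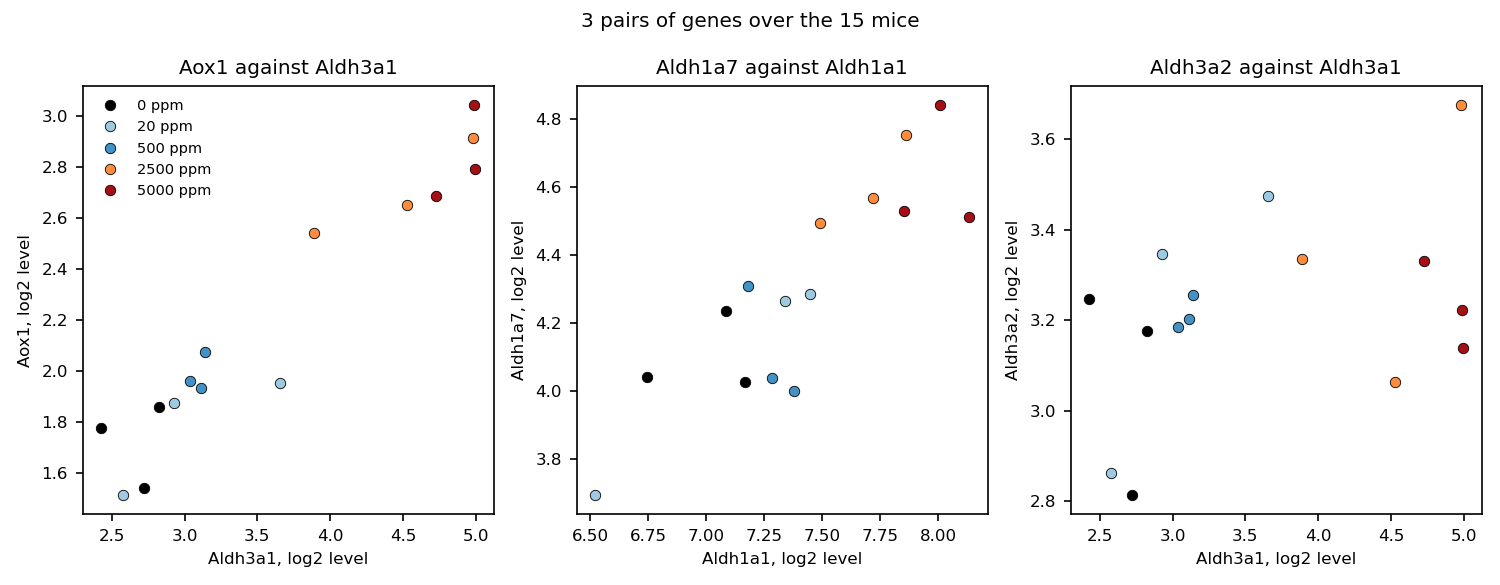
Log2 level of one gene against another in the 15 mice, 1 point per mouse coloured by diet, for Aox1 against Aldh3a1, Aldh1a7 against Aldh1a1, and the neighbours Aldh3a2 against Aldh3a1. The first pair (Pearson r 0.96) and the second (0.87) separate the high doses from the rest, and the third (0.41) does so along Aldh3a1 alone.

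The genes that did not separate by dose had other nearest patterns. Aldh1a2 was most like Wt1 (0.92), a mesothelial transcription factor, Rspo1 (0.92) and Ushbp1 (0.89), Aldh1a3 most like Mogat2 (0.92), Islr2 (0.90) and Lypd2 (0.87), and Aldh3a2 most like Mapk8ip3 (0.95), Sun1 (0.95) and Helz2 (0.94). For Aldh2 (Mrps18a 0.90, Eng 0.89, Ppp1r37 0.89) and Aox3 (Sdf4 0.97, Gm8709 0.97, Mthfsl 0.96) the values fell to 0.75 to 0.79 and 0.76 to 0.78 without the 4 arrays that stood apart. For Aldh3a1 and Aox1 they stayed at 0.92 to 0.96.

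Of 13 further aldehyde dehydrogenases 11 were measured, and none passed at any dose or on the trend. At 5000 ppm 9 were positive and 2 negative, where 60.6% of all features were positive, with a median of 0.32 (log2) against 0.07 over all features. The largest folds were those of Aldh18a1 (0.42 ± 0.22, adjusted p = 0.964), which makes a proline precursor, Aldh16a1 (0.37 ± 0.20) and Aldh7a1 (0.35 ± 0.15, adjusted p = 0.928), which acts in lysine breakdown. Of 11 relatives of the aldehyde oxidases and enzymes of the molybdenum cofactor 9 were measured, and none passed. At 5000 ppm 8 were positive (7 after quantile normalization), with a median of 0.21, against the same share and median over all features. Mocs1, the first step of cofactor synthesis, had a log2 fold of 0.59 ± 0.27, Mocs2, which acts in the next step, -0.42 ± 0.24, and xanthine dehydrogenase (Xdh), the closest relative of the oxidases, 0.41 ± 0.26 (adjusted p = 0.964, 0.964 and 0.967).

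Of 6 genes known to respond to AhR 5 were measured, and Nqo1, a quinone reductase, was the one called. Its control mice lay between -1.78 and -1.66 and its 5000 ppm mice between 0.28 and 0.71 (log2 fold 2.22 ± 0.21, adjusted p = 0.000963). Nqo1 is also a target of Nrf2. Cyp1a1, the P450 most used as a readout of AhR, lay lower in the 5000 ppm mice (-2.51 to -1.87) than in the controls (-1.51 to -0.99), without passing (-1.03 ± 0.42, adjusted p = 0.928). Its 2500 ppm mice ran from -3.17 to -1.08 and overlapped with the controls. Cyp1b1, another AhR target, had a log2 fold of 0.33 ± 0.35 and overlapped with the control. The transcripts of the receptor AhR and of the transcription factor Nrf2 themselves gave 0.11 ± 0.17 (Ahr) and 0.08 ± 0.17 (Nfe2l2, which encodes Nrf2). The part of AhR or Nrf2 in these results was not tested.

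Airway epithelium is a known site of aldehyde-oxidising enzymes in the lung, and its markers were read beside these genes. None of the 8 club cell markers passed at 5000 ppm, 7 were positive (60.6% of all features) and their median was 0.32. Their summed level ran from 1395 to 1591 in the control mice and from 1814 to 2273 at 5000 ppm (relative to the 75th percentile of the array), without overlap, and from 1405 to 3160 at 2500 ppm. Scgb1a1 and Cyp2f2, which define these cells, had log2 folds of 0.32 ± 0.20 and 0.31 ± 0.20. The summed level of 5 of 6 ciliated cell markers was 90.3 to 140 in the controls and 128 to 185 at 5000 ppm, with none passing, 2 of the 5 at an unadjusted p under 0.05 and a median log2 fold of 0.45. That sum is mostly the signal of Tppp3, whose mean log2 level was 6.87, against 1.77 for the next brightest marker. Foxj1, another of the 5, had means of 1.18 in the controls and 1.10 at 5000 ppm and overlapped. The mesothelial sum was 17.4 to 20.9 and 14.0 to 19.7. Higher readings were not particular to the airway lists. The alveolar type 2 sum was 990 to 1025 in the controls and 1049 to 1076 at 5000 ppm, also without overlap, though the median log2 fold of its markers was -0.17. The alveolar type 1 and the basal and squamous markers had medians of 0.37 and 0.45. The log2 folds of the 5 genes, 2.24 (Aldh3a1), 1.12 (Aox1), 0.997 (Aldh1a1), 0.61 (Aldh3b1) and 0.53 (Aldh1a7), stand beside the club and ciliated cell medians of 0.32 and 0.45, the last 2 genes being the nearest to them. The part of the club and ciliated cell markers in these results was not tested.

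The calls at 5000 ppm were then set against each change in processing. Aldh3a1 passed in 15 of 18 alternatives that left out no single array and in 10 of 15 that did, with a log2 fold between 2.09 and 2.33 in all of these. Aox1 passed in 10 of 18 and in 1 of 15, with a log2 fold between 1.0 and 1.19. Both lost the call without control mouse 1 and 20 ppm mouse 1 together (adjusted p = 0.0820 and 0.0965).

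**Figure D5:**
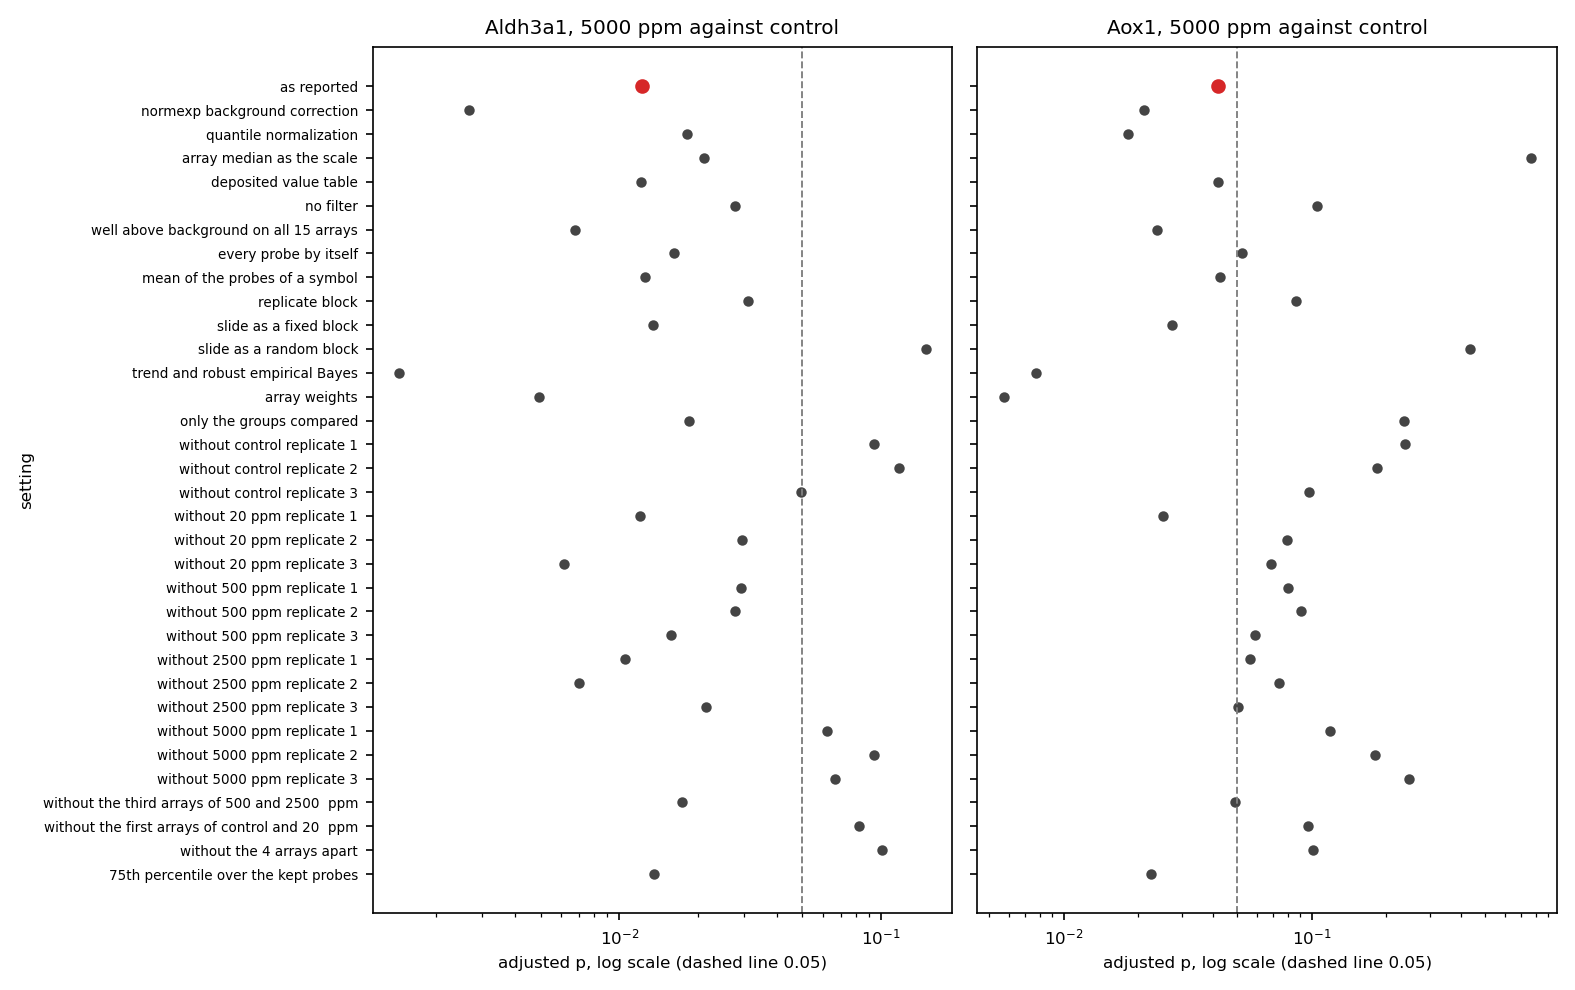
Adjusted p (x axis, log scale, dashed line at 0.05) of the fold at 5000 ppm against control for Aldh3a1 (left) and Aox1 (right) under each processing or left-out array (y axis), with the reported setting in red. Aldh3a1 ranges from 0.00144 to 0.148 and lies mostly left of the line, and Aox1 ranges from 0.00573 to 0.763 on both sides of it.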

How the data were processed

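Labelling started from 100 ng of lung RNA with Cy3, and replicates are separate mice, per the labels. Per the file headers, Agilent Feature Extraction 10.7.3.1 read the scans. The deposited scanner files give linear intensity: a processed signal with background removed, and medians of spot and background, besides calls of 0 or 1. The authors' deposited table gives log2 values, which on each array were those of the processed signal less 1 constant (correlation 1).

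Control spots and spots flagged as outliers were left out, and spots of a probe averaged (56605 probes). Each array was set to its 75th percentile. A probe was kept when at least 50% of its spots were well above background on all 3 arrays of a diet (43154 probes). Names came from RefSeq accessions (GRCm38.p6; 21930 probes without a symbol). A gene was read from its kept probe of highest mean. The headers give mm9 as the design's build, and none of its coordinates are printed. The fits used limma 3.58.1 (R 4.3.3; 1 coefficient per diet, 10 residual degrees of freedom, two-sided). The procedure was tested on simulated data.

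The genes and lists were chosen with earlier results of these data known. All 10 genes are named at each comparison, from each other list the genes past the threshold and the 3 largest folds at 5000 ppm, and for each gene the 3 (Aldh3a1 and Aox1: 5) most correlated named genes, of which 1 is not reported here. Nqo1, Cyp1a1, Cyp1b1, Ahr, Nfe2l2, Scgb1a1, Cyp2f2 and Foxj1 could be named in every case, and Tppp3 was named for its level. Replicate numbers are in the labels without a stated meaning. Same-numbered control and 20 ppm arrays deviated together (r 0.612, 0.261 and 0.166), which is the one pairing with control where all 3 exceeded 0.1. The block left 0 of the 10 genes called at 20 ppm. Same-numbered 500 and 2500 ppm arrays also deviated together (r 0.382, 0.289 and 0.475).

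The alternatives were normexp with an offset of 50 (on median signals, since no mean signals were used), quantile normalization, the array median, the deposited values, 2 other filters, 2 other probe rules, a replicate or slide block, array weights, other empirical Bayes settings, fits of only the groups compared, a minimum log2 fold of 1, another dose scale and left-out arrays. The 75th percentile over kept probes and fits within a slide were added after seeing the data.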

Additional observations from a re-analysis of the deposited data

How the results depend on the processing

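At 20 ppm, 500 ppm and 5000 against 2500 ppm the count of the 10 genes called was 0 under every alternative run. At 2500 ppm it went from 0 to 2 with the slide as a fixed block (where 5055 of all features passed) and with array weights, and to 1 with a trend and robust empirical Bayes. At 5000 ppm it went from 2 to 1 with the array median, no filter, every probe by itself, the replicate block (Aox1 adjusted p = 0.0863) or only the groups compared, to 0 with the slide as a random block, without the first arrays of control and 20 ppm, and without the 4 arrays apart, and ranged from 0 to 2 with single arrays left out. Under 1 of the alternatives that left out no single array it went to 3 at 5000 ppm, where Aldh1a1 also passed (limma adjusted p = 0.0239). How many of all features passed under that alternative is not given here, so this count has no background beside it. On the trend it went from 2 to 1 with the array median and 0 with the slide as a random block. It went to 3 with quantile normalization, for which the count of all features is not given here, and ranged from 2 to 3 with single arrays left out. With the trend and robust setting it was 4, where 75 of all features passed (57 higher). With array weights it was 5, where 540 passed (182 higher), against 49 (31 higher) in the main fit. The replicate numbers do not pair the 5000 ppm and control arrays (r -0.120, -0.116 and -0.201), and the block changed no other count. The causes were not tested.

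Signs turned for small folds. At 5000 ppm Aldh1a2 was 0.29 with the slide as a fixed block (-0.39 to 0.11 with single arrays left out). Aldh1a3 was -0.72 with the fixed slide block, -0.19 with the random one, -0.074 with array weights and -0.080 without the first arrays or the 4 apart (-0.33 to 0.44). Aldh2 was -0.031 with quantile normalization (-0.033 to 0.38). Aox3 was 0.088 as the mean of its probes, 0.27 with array weights and 0.44 without the first arrays or the 4 apart (-0.66 to 0.44). Aldh1a7 for 5000 against 2500 ppm was -0.094 with quantile normalization and -0.011 with the percentile over kept probes (-0.085 to 0.095), and Aox1 at 20 ppm ran from -0.037 to 0.19. With 3 arrays a diet the number of arrays limits the precision.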

Other observations

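The alcohol dehydrogenases and the genes of retinoid metabolism, which supply the substrate of ALDH1A1, ALDH1A2 and ALDH1A3 or remove their product, were read beside them. Of 28 genes 24 were measured, and none passed at any dose or on the trend in limma. At 5000 ppm 2 of the 24 had an unadjusted p under 0.05, both higher, where 5.14% of all features had such a p and 3.04% were higher. Such a p was held by 0 at 20 ppm (1.48% of features), 4 at 500 ppm (3 higher, 2.84% of features) and 2 at 2500 ppm (1 higher, 8.49%). On the trend it was held by 6 (5 higher), where 9.22% of features had it. These counts were not tested against the shares. At 5000 ppm 20 were positive and 4 negative, where 60.6% of all features were positive, with a median of 0.16 (log2) against 0.07 over all features; after normexp the medians were 0.13 and 0.14. Cyp26b1, which breaks down retinoic acid, had the largest fold. Its control mice lay between 1.03 and 1.65 (log2 level), its 20 ppm mice between 0.45 and 3.36, its 500 ppm mice between 2.17 and 4.56, its 2500 ppm mice between 0.91 and 2.87 and its 5000 ppm mice between 2.61 and 4.50. The mice at 500 and 5000 ppm lay above the controls and those at 20 and 2500 ppm overlapped with them, so the levels did not follow the order of the doses. The 5000 ppm log2 fold was 2.21 ± 0.83 (limma adjusted p = 0.899), with an SE much larger than those of Aldh3a1 and Aox1. Adh7, an alcohol dehydrogenase that oxidises retinol, had 0.79 ± 0.59, and Stra6, a receptor for retinol uptake, -0.72 ± 0.56, both overlapping with the control. The retinoic acid receptor Rarb, named after its value was seen, had 0.40 ± 0.20.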
